A study of Mus musculus with 12 samples.

Results

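Transcript levels of 10 genes of polyamine metabolism were described in the mouse tibialis anterior, a mostly fast-twitch muscle at the front of the shin. They were chosen by name (Smox, Amd1, Odc1, Azin1, Srm, Sms, Sat1, Oaz1, Oaz2 and Paox), with earlier results of these data known. All 10 were present among the 13865 genes listed in at least 1 of 3 deposited tables and passed the filter on low values. The 12 RNA-seq libraries fell into 3 groups of 4, all from C57BL/6J mice. KPC_UA mice carried tumours after injection of KPC cells (cells of a mouse pancreatic cancer) into the exposed pancreas, and ate chow with added ursolic acid, a triterpenoid of fruit peel. KPC mice carried the same tumours and ate standard chow. Sham mice had no tumour and ate standard chow. The age and sex of the mice and the dose and duration of ursolic acid are not given in the labels. The labels do not say that each sample is a separate mouse, so p-values speak for the spread between these libraries, which may be technical.

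Polyamines (putrescine, spermidine and spermine) are small positively charged molecules that bind RNA and are needed for protein synthesis and cell growth. Ornithine decarboxylase makes putrescine, S-adenosylmethionine decarboxylase supplies the aminopropyl groups, and spermidine synthase and spermine synthase add them in turn. Spermine oxidase, or an acetyltransferase followed by an acetylpolyamine oxidase, turns the chain back, and antizymes send ornithine decarboxylase to the proteasome. In mouse muscle, Smox is known to be repressed under several conditions that cause atrophy.

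The 2 genes with the largest absolute log2 fold changes of the 10, Smox and Amd1, had their lowest levels in KPC muscle, and the bases before their RefSeq start sites are shown because these genes varied together across libraries. Sequences are from the RefSeq promoter table (GRCm38.p6), read 5′ to 3′ on the gene's strand, with capitals marking GGGCGG in either orientation and, in Amd1, also TATATAA, found in both orientations at overlapping bases. For Smox the bases at chr2:131491654-131491763 (plus strand) are given, the stretch of the 250 bases before the RefSeq start that no annotated exon covers, and for Amd1 all 250 at chr10:40302189-40302438 (minus strand). In the GENCODE annotation Smox starts earlier, at 131491496, so its window lies inside the annotated gene. Annotated exons cover 140 bases of that window, and its GC content and motif matches below include them.
Smox: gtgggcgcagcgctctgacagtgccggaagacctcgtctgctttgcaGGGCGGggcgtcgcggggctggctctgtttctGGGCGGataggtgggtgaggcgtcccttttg
Amd1: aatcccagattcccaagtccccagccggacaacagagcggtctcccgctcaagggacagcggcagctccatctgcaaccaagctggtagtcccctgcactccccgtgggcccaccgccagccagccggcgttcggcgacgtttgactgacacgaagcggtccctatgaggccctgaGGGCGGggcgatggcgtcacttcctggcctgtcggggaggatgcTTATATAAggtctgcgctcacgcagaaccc
The Amd1 window held 1 GGGCGG. Its TATATAA matches began at bases 221 and 222 of the window, which is 30 and 29 bases before the start. The full Smox window held 6 GGGCGG, of which 2 lie in the stretch shown, and no TATATAA. GC content was 68.0% over the Smox window and 64.4% over the Amd1 window, against a median of 52.4% over 32851 promoter windows. Of all windows, 32.7% held GGGCGG and 3.04% held TATATAA, and both motifs were chosen after the sequences had been seen. CACGTG (6.02% of windows), GTAAACA (3.17%) and TATAAA (12.4%), each searched on both strands, were not in either window. Of the 10 genes 8 had a promoter entry, and the only CACGTG among them was in a window of Sms. GGGCGG was also in windows of Odc1, Sms, Sat1, Oaz2 and Paox, though not in that of Oaz1, so it is not particular to Smox and Amd1. Nor is a high GC content, which was 80.0% for Odc1, and 47.2% and 75.2% for the windows of Sms.

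The libraries held 22.3 to 32 M reads in listed genes. KPC libraries were the most spread. On a first principal component with 54.7% of the variance, KPC replicate 1 lay at 120.6 and KPC replicate 4 at 50.6, while KPC replicates 3 and 2 lay at 11.98 and -8.55, KPC_UA libraries between -24.5 and -0.98, and Sham libraries between -32.6 and -27.0. All 8 markers of skeletal muscle fibres were listed, and their summed level was 4114400 to 5116600 in KPC_UA, 4090500 to 4737400 in KPC and 4290900 to 5162100 in Sham. A sum weighs its highest genes most, and single markers could differ from it. Acta1 (356690 to 498600 in KPC, 517240 to 608110 in Sham) was lower in every KPC library than in every Sham library. So was Mylpf (73715 to 124500 in KPC, 129800 to 177570 in Sham), while the other muscle markers overlapped between KPC and Sham. All 6 fibroblast markers were listed and summed to 5188 to 8816 in KPC_UA, 3594 to 5474 in KPC and 8274 to 12147 in Sham, so the KPC sum was below Sham in every library. Singly, Col1a1, Col3a1, Lum and Mfap5 were lower in every KPC library than in every Sham library, while Dcn and Pdgfra overlapped. The 9 macrophage and neutrophil markers, all listed, summed to 892 to 1151 in KPC_UA, 877 to 1628 in KPC and 705 to 1047 in Sham. Among them S100a8 and S100a9, both at low levels, were higher in every KPC library than in every Sham library, and the others overlapped. The 6 erythroid markers, all listed, summed to 2486 to 15997 in KPC_UA, 2790 to 10659 in KPC and 749 to 3445 in Sham. Of these, Alas2 and Slc4a1 were higher in every KPC library than in every Sham library, and the globin genes overlapped. All 5 endothelial markers were listed and summed to 3559 to 5956 in KPC_UA, 3877 to 5451 in KPC and 4508 to 5417 in Sham. This sum hid opposite patterns. Cldn5 (312 to 710 in KPC, 129 to 285 in Sham) and Pecam1 were higher in every KPC library than in every Sham library. Kdr was lower (340 to 1009 in KPC, 1044.5 to 1472 in Sham), and Cdh5 and Tek overlapped. Of 5 adipocyte markers 4 were listed, summing to 98.3 to 418 in KPC_UA, 83.0 to 123 in KPC and 226 to 586 in Sham, again with KPC below Sham in every library. In addition, 0 of 6 pancreatic and epithelial markers were listed in all 3 tables. The part of these cell types in the values below was not tested.

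Levels are normalised read counts, that is, the reads recovered from the deposited values divided by size factors over all 12 libraries. Each comparison was tested separately within its own deposited table with limma on log2(value + 1), so fold changes are on that scale and understate changes of low genes. A gene was called at a Benjamini-Hochberg adjusted p under 0.05 over all genes of the table. In whole muscle, fewer cells of a type and less RNA per cell cannot be told apart.

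Transcripts of Odc1, which encodes ornithine decarboxylase, the first enzyme of the pathway (chromosome 12, 17544794 to 17551505, GRCm38), varied widely among KPC libraries. Odc1 had 2161, 2615, 3644 and 3352 normalised read counts in KPC_UA replicates 1 to 4, 6705, 1930, 2786 and 4102 in KPC, and 2724, 2568, 3746 and 1736 in Sham. KPC replicate 1 stood above every other library, and all 3 groups overlapped. For Odc1 the log2 fold changes were 0.42 in KPC against Sham (SE 0.37, adjusted p = 0.474 by limma), -0.27 in KPC_UA against KPC (adjusted p = 0.684 by limma) and 0.16 in KPC_UA against Sham (adjusted p = 0.955 by limma). Odc1 has 14 copies of at least 90% identity in the annotation, of which AW146154 was listed in all 3 tables, so its values are uncertain where the counting could split reads.

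Amd1 (chromosome 10, 40287458 to 40302186) encodes S-adenosylmethionine decarboxylase, which commits S-adenosylmethionine to spermidine and spermine synthesis. It had 10855, 15875, 19696 and 14601 normalised read counts in KPC_UA replicates 1 to 4, 1839, 13010, 8754 and 3128 in KPC, and 17780, 20276, 23177 and 12063 in Sham. KPC replicates 1 and 4 were the lowest of all libraries, KPC replicate 3 was also below all KPC_UA and Sham libraries, and KPC replicate 2 lay among them. Group means were 15257 ± 3647 in KPC_UA, 6683 ± 5178 in KPC and 18324 ± 4721 in Sham (SD, n = 4 each).
In KPC against Sham the log2 fold change of Amd1 was -1.82 (SE 0.54, 95% interval -3.03 to -0.61), a 3.53-fold lower level that limma did not call (adjusted p = 0.109). The authors' deposited table gives -1.46 with an adjusted p of 0.0434. Without KPC replicates 1 and 4 the log2 fold change was -0.74 (adjusted p = 0.126 by limma), and without KPC replicate 2 it was -2.28 (adjusted p = 0.0241 by limma, which then called 10% of all genes). In KPC_UA against KPC it was 1.56 (SE 0.54, interval 0.36 to 2.77, adjusted p = 0.382 by limma), and 0.48 without KPC replicates 1 and 4 (adjusted p = 0.512 by limma). For Amd1, KPC replicates 1 and 4 were the lowest libraries and KPC replicate 2 the highest in KPC, so these omissions are tied to the values tested. The authors' deposited table gives 1.19 in KPC_UA against KPC with an adjusted p of 0.212. With KPC_UA set against Sham the log2 fold change of Amd1 was -0.25 (interval -0.71 to 0.22, adjusted p = 0.898 by limma).

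Amd1 shares 99.6% of 3202 aligned transcript bases with Amd2, a single-exon gene on the same chromosome, and 99.9% and 99.5% of 1005 bases with the listed pseudogenes Amd-ps3 and Amd-ps4. Reads given to Amd2 came to 0.885% to 1.24% of those given to Amd1, a share that lay between 0.931% and 1.22% in KPC libraries. Both genes are therefore uncertain where the counting could split their reads, and in KPC against Sham Amd2 was at -1.80 on the log2 scale (limma adjusted p = 0.126).

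The 2 aminopropyl transferases had other patterns than Amd1. Srm, spermidine synthase (chromosome 4, 148591503 to 148594993), had 120.2, 164, 184 and 168 normalised read counts in KPC_UA, 359.6, 156, 176 and 433 in KPC, and 168, 141, 127 and 143 in Sham. KPC replicates 1 and 4 were high, and KPC replicates 2 and 3 lay within the range of KPC_UA and close to Sham. The log2 fold change of Srm was 0.82 in KPC against Sham (interval 0.097 to 1.55, adjusted p = 0.167 by limma). It was 0.20 without KPC replicates 1 and 4, the highest libraries for Srm, an omission tied to the values tested. It was -0.70 in KPC_UA against KPC (adjusted p = 0.382 by limma) and 0.13 in KPC_UA against Sham (interval -0.22 to 0.49). Sms, spermine synthase (X chromosome, 157443855 to 157492287), had overlapping values in all groups, with 2647 to 3600 in KPC_UA, 2228 to 3265 in KPC and 2538 to 3426 in Sham. The log2 fold changes of Sms were -0.16 in KPC against Sham (interval -0.56 to 0.24), 0.16 in KPC_UA against KPC (interval -0.24 to 0.55) and 0.0045 in KPC_UA against Sham (interval -0.28 to 0.28). A listed pseudogene, Sms-ps, is identical to Sms over 1101 bases.

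**Figure D1:**
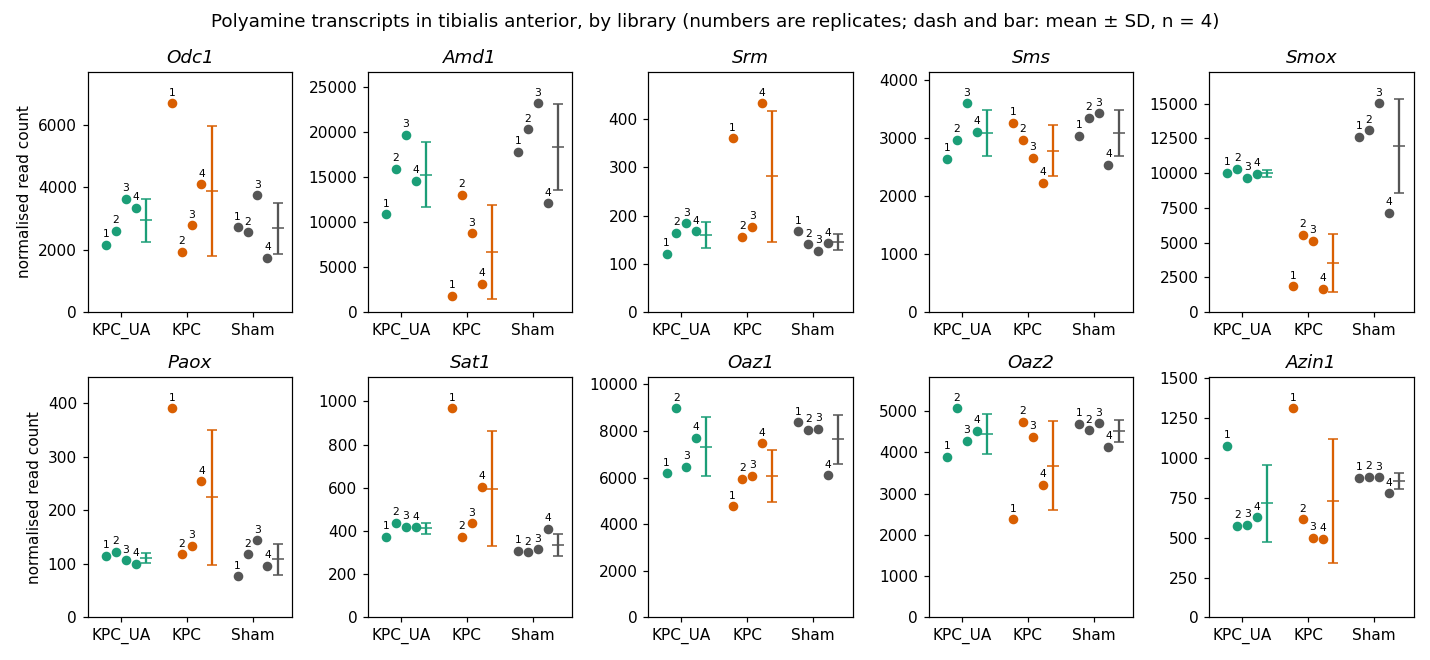
Normalised read counts (vertical axes, linear, from 0) of the 10 genes in each library of KPC_UA, KPC and Sham muscle, with replicate numbers beside the points and a dash and bar for mean ± SD (n = 4). Smox lies at 1691 to 5584 in KPC, below every KPC_UA and Sham library, and KPC replicates 1 and 4 stand high for Srm, Paox and Sat1.

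Smox (chromosome 2, 131491496 to 131525922) encodes spermine oxidase, which turns spermine directly into spermidine and releases hydrogen peroxide. It had 10031, 10325, 9648 and 9949 normalised read counts in KPC_UA replicates 1 to 4, 1847, 5584, 5115 and 1691 in KPC, and 12599, 13078, 15040 and 7149 in Sham. All 4 KPC libraries were below all 8 others. The KPC_UA libraries lay within a narrow band, a coefficient of variation of 2.78% against 58.4% in KPC and 28.3% in Sham, and inside the range of Sham.
In KPC against Sham the log2 fold change of Smox was -1.91 (SE 0.42, interval -2.85 to -0.97), or 3.76-fold lower, which missed limma's threshold (adjusted p = 0.0601). The authors' deposited table gives -1.75 with an adjusted p of 0.00181, and limma fitted over all 12 libraries called it (adjusted p = 0.0150), as it did 7.89% of all genes. Without KPC replicates 1 and 4 it was -1.11 and called (adjusted p = 0.0429 by limma), where 4.51% of all genes were called. These 2 libraries were the lowest for Smox and the farthest out on the first principal component, so leaving them out is tied to the values tested. Without KPC replicate 2 the log2 fold change of Smox was -2.20 and called (adjusted p = 0.0178 by limma), where 10% of all genes were. KPC replicate 2 was the highest KPC library for Smox, so this omission is tied to the values as well. In KPC_UA against KPC the log2 fold change was 1.70 (SE 0.38, interval 0.85 to 2.56), or 3.25-fold higher. By p it ranked 24 of 13522 genes, but limma called none of these (adjusted p = 0.382), while the authors' deposited table gives 1.49 with an adjusted p of 0.0301. Without KPC replicates 1 and 4 it was 0.90 (adjusted p = 0.0652 by limma). With KPC_UA set against Sham it was -0.20 (interval -0.62 to 0.22, adjusted p = 0.924 by limma).

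Transcripts of the acetylation route were high in KPC replicates 1 and 4, where Smox was lowest. Sat1 (X chromosome, 155213132 to 155216449) encodes spermidine/spermine N1-acetyltransferase, which marks polyamines for oxidation or export. It had 374, 437, 420.4 and 417 normalised read counts in KPC_UA, 967, 373, 436 and 604 in KPC, and 307, 302, 316 and 409.8 in Sham. KPC replicates 1 and 4 were above every other library, and Sham replicates 1 to 3 were below all KPC_UA and KPC libraries. The log2 fold change of Sat1 was 0.74 in KPC against Sham (interval 0.11 to 1.37, adjusted p = 0.158 by limma). It was 0.28 without KPC replicates 1 and 4, the highest libraries for Sat1, an omission tied to the values tested. It was -0.43 in KPC_UA against KPC (adjusted p = 0.438 by limma) and 0.32 in KPC_UA against Sham (interval 0.044 to 0.60, adjusted p = 0.529 by limma).
Paox (chromosome 7, 140115799 to 140137224) encodes the peroxisomal oxidase of acetylated polyamines. It had 114, 122, 106 and 99.6 normalised read counts in KPC_UA, 389.9, 118, 134 and 254 in KPC, and 76.6, 117, 144 and 96.4 in Sham. Again KPC replicates 1 and 4 stood above the rest, and the other 2 KPC libraries lay inside the range of Sham. The log2 fold change of Paox was 0.90 in KPC against Sham (interval 0.061 to 1.75, adjusted p = 0.182 by limma) and -0.84 in KPC_UA against KPC (adjusted p = 0.382 by limma). In KPC against Sham it was 0.25 without KPC replicates 1 and 4, the highest libraries for Paox, an omission tied to the values tested. It was 0.069 in KPC_UA against Sham (interval -0.35 to 0.49). Paox shares 142 exonic bases (2.89% of its exons) with Echs1 on the opposite strand, and no label or header says whether the counting used strand. It also matches the pseudogene Gm19680, not listed in all 3 tables, at 99.9% of 1358 bases. Shorter matches include listed genes, such as Map3k2 at 91.1% of 313 bases. Values of Paox are therefore uncertain where the counting could split reads.

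Antizymes bind ornithine decarboxylase and target it for degradation. Limma called neither in KPC against Sham, where it called 1.18% of all genes. In both comparisons of KPC_UA limma called 0% of all genes, so neither could be called there. Oaz1, antizyme 1 (chromosome 10, 80826656 to 80829290), had 6185, 8967, 6459 and 7708 normalised read counts in KPC_UA, 4770, 5958, 6079 and 7474 in KPC, and 8377, 8045, 8097 and 6093 in Sham. KPC replicates 1 to 3 were below all Sham libraries, and KPC replicate 4 was above Sham replicate 4. Oaz1 had log2 fold changes of -0.34 in KPC against Sham (interval -0.76 to 0.076), 0.28 in KPC_UA against KPC (interval -0.16 to 0.71) and -0.061 in KPC_UA against Sham (interval -0.38 to 0.26). A listed pseudogene, Oaz1-ps, is identical to Oaz1 over 259 bases, so Oaz1 values are uncertain where the counting could split reads. Oaz2, antizyme 2 (chromosome 9, 65668001 to 65690300), had 3894, 5061, 4276 and 4525 in KPC_UA, 2379, 4744, 4373 and 3212 in KPC, and 4696, 4535, 4698 and 4128 in Sham. Its low libraries were KPC replicates 1 and 4, and its log2 fold change in KPC against Sham was -0.35 (interval -0.85 to 0.15). In KPC_UA muscle Oaz2 was at 0.32 against KPC (interval -0.20 to 0.83) and at -0.022 against Sham (interval -0.26 to 0.22) on the log2 scale. The antizymes are regulated by ribosomal frameshifting, which transcript levels do not measure.
Azin1 (chromosome 15, 38487427 to 38519266) encodes antizyme inhibitor 1, a decarboxylase relative without enzyme activity that draws antizyme away from ornithine decarboxylase. It had 1078, 573, 582 and 627 normalised read counts in KPC_UA, 1311, 615, 501 and 495 in KPC, and 876, 883, 878 and 779 in Sham. Replicate 1 was the highest of its group in both tumour-bearing groups, and the other 3 libraries of each lay below all Sham libraries. The log2 fold change of Azin1 was -0.35 in KPC against Sham (interval -0.998 to 0.29, adjusted p = 0.444 by limma). Without KPC replicate 1 it was -0.68 and called (adjusted p = 0.0358 by limma), as were 2.93% of all genes. Without KPC replicates 1 and 4 it was -0.62 and called (adjusted p = 0.0286 by limma), as were 4.51%. Both fits leave out KPC replicate 1, the highest KPC library for Azin1, so these calls are tied to the values tested. In KPC_UA against KPC Azin1 was at 0.046 (interval -0.69 to 0.79). With KPC_UA set against Sham it was -0.30 (interval -0.69 to 0.090, adjusted p = 0.753 by limma), and 358 of its exonic bases (5.72%) are shared with an antisense transcript.

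Over the 10 genes, limma called 0 in KPC against Sham, where it called 1.18% of all 13542 genes tested. At an unadjusted p under 0.05 there were 5, where 24.5% of all genes were under it. Smox and Amd1 were lower (12.4% of all genes were lower at this p), and Sat1, Srm and Paox higher (12.1%). EdgeR also called 0 (1.39% of all genes). DESeq2 and the authors' deposited table each called Smox and Amd1 lower, where each called 11.7% of all genes and 5% lower. These 2 gave nearly the same values (for Smox an adjusted p of 0.001805 by DESeq2 and 0.0018053 in the authors' deposited table), so here and below they count as 1 analysis. EdgeR over 12 libraries called Smox lower and Sat1 higher (10.9% of all genes). The values of KPC and Sham did not overlap for Smox alone (19.1% of all genes did not, 9.11% with KPC lower). The median log2 fold change was -0.25 over the 10 genes and 0.0075 over all genes, and the median absolute value 0.58 against 0.38. In KPC_UA against KPC limma called 0 (0% of 13522 genes) and edgeR called 0 (0%), 3 genes had an unadjusted p under 0.05 (12.7%), and DESeq2 (0.738%, 0.199% higher) and the authors' deposited table (0.73%, 0.192% higher) each called Smox higher. Values did not overlap for Smox alone (7.92%, 3.78% with KPC_UA higher). Here the median log2 fold change was 0.10 over the 10 genes and -0.0037 over all genes, with median absolute values of 0.37 and 0.31. For KPC_UA against Sham limma and edgeR each called 0 (0% of all genes), DESeq2 and the authors' deposited table called 0 (0.692%), Sat1 alone had an unadjusted p under 0.05 (7.94%), and all 10 genes overlapped (4.1% of genes did not). The median log2 fold change was -0.0089 over the 10 genes and 0.0089 over all genes, with median absolute values of 0.15 and 0.12. KPC against Sham and KPC_UA against KPC share the 4 KPC libraries, so their opposite signs are not independent.

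**Figure D2:**
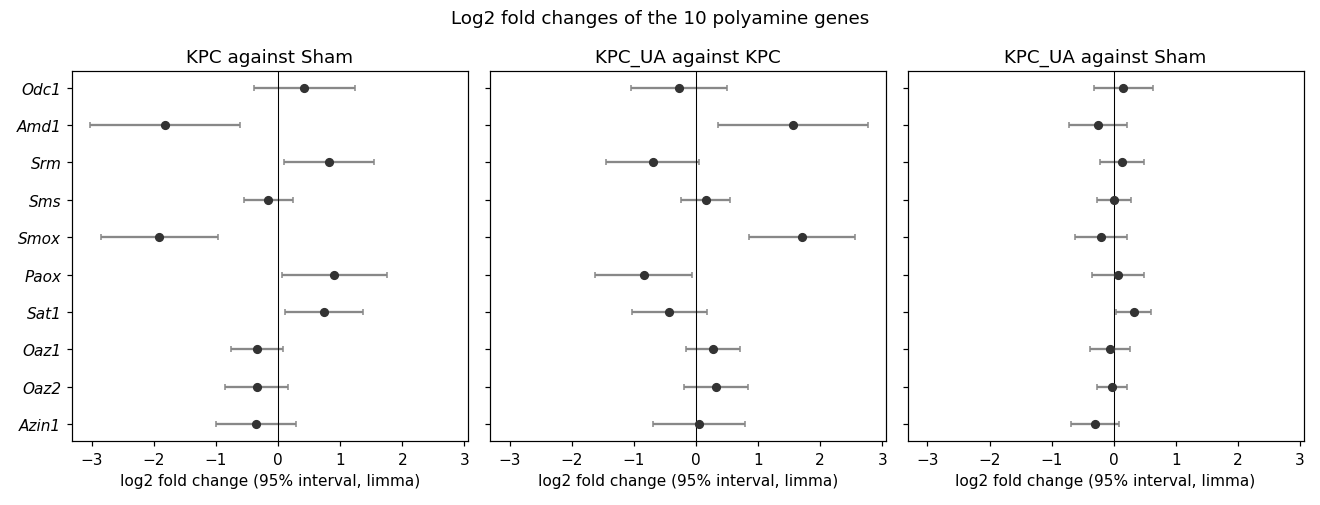
Log2 fold changes with 95% intervals (horizontal axes, log2) of the 10 genes (rows) in KPC against Sham, KPC_UA against KPC and KPC_UA against Sham. Smox and Amd1 lie at -1.91 and -1.82 in the left panel and at 1.70 and 1.56 in the middle one, and in the right panel every point lies within about 0.32 of 0.

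Scaled by exonic length, the highest levels in Sham muscle were those of Amd1, at 5173 normalised read counts per kb (range 3406 to 6544), Smox, at 3073 (range 1836 to 3862), and Oaz1, at 2992 (range 2382 to 3275). The ranges of Amd1 and Smox overlapped, as did those of Smox and Oaz1, while every Amd1 value was above every Oaz1 value. Oaz2 followed at 1510 per kb, then Odc1 at 791 and Sms at 514, and the ranges of Odc1 and Sms overlapped. Azin1 (137), Sat1 (120), Srm (90.4) and Paox (22.1 per kb) were the lowest, and of these only Azin1 and Sat1 overlapped. In KPC muscle the order began with Oaz1 at 2373 per kb, then Amd1 at 1887, Oaz2 at 1229.7, Odc1 at 1139.7 and Smox at 914, the ranges of neighbours overlapping at each step. In KPC_UA muscle Amd1 (4307 per kb), Oaz1 (2865) and Smox (2565) were again the 3 highest, with overlapping ranges for Oaz1 and Smox and for Amd1 and Oaz1.

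**Figure D3:**
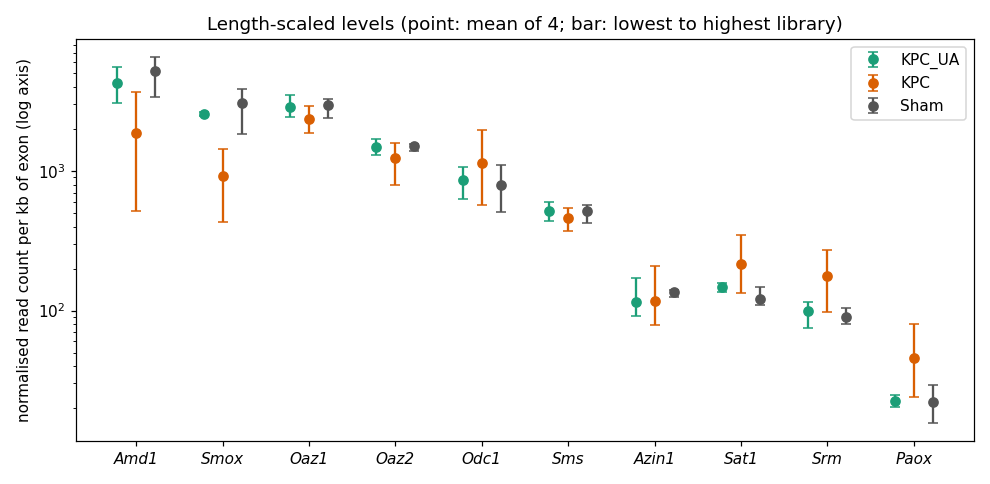
Normalised read counts per kb of exon (vertical axis, logarithmic) of the 10 genes in KPC_UA, KPC and Sham muscle, with points for means of 4 libraries and bars from the lowest to the highest library. Smox is at 2565 per kb in KPC_UA, 914 in KPC and 3073 in Sham, while Sms is at 513, 463 and 514.

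Ratios of reads within a library compare genes without any scaling between libraries. There were 87.6, 84.4, 90.6 and 99.9 Smox reads for each Paox read in KPC_UA replicates 1 to 4, 4.74, 47.4, 38.1 and 6.65 in KPC, and 164.5, 111, 105 and 74.2 in Sham. Every KPC library was below all others, and KPC_UA and Sham overlapped. There were 5.02, 6.07, 5.41 and 4.36 Amd1 reads for each Odc1 read in KPC_UA, 0.274, 6.74, 3.14 and 0.763 in KPC, and 6.53, 7.90, 6.19 and 6.95 in Sham. In KPC replicates 1 and 4 Odc1 reads outnumbered Amd1 reads, while KPC replicate 2 lay inside the Sham range, and all KPC_UA libraries were below all Sham libraries. For Odc1 to Oaz1 the ratio was 0.292 to 0.564 in KPC_UA, 0.324 to 1.41 in KPC and 0.285 to 0.463 in Sham, with KPC replicate 1 alone above 1. These ratios are given as descriptions, with no test.

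**Figure D4:**
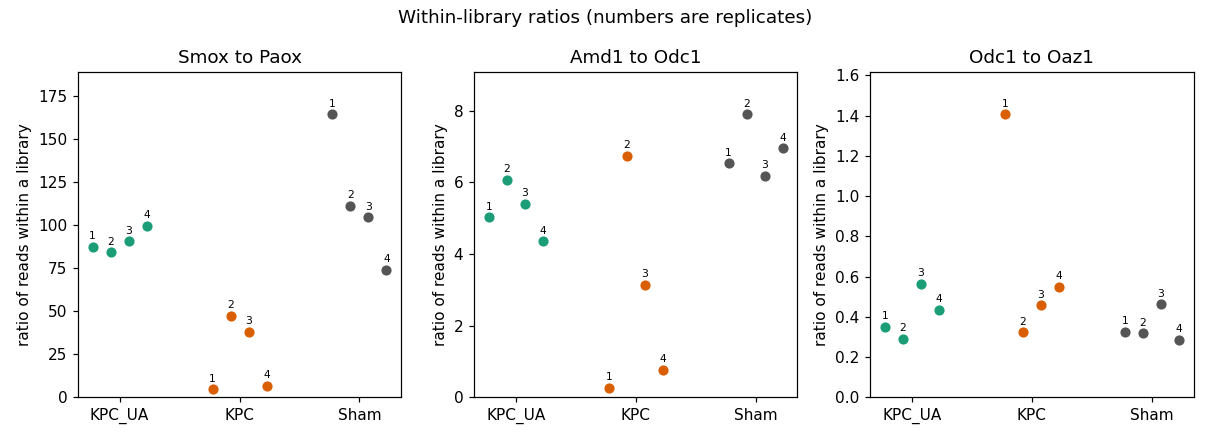
Ratios of reads within each library (vertical axes, linear, from 0) for Smox to Paox, Amd1 to Odc1 and Odc1 to Oaz1 in KPC_UA, KPC and Sham muscle, with replicate numbers beside the points. For Smox to Paox the 4 KPC libraries lie at 4.74 to 47.4, below the lowest KPC_UA library at 84.4 and the lowest Sham library at 74.2.

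Likeness of pattern was measured as the root mean square difference of centred log2 values over the 12 libraries, among 10038 genes, with no test. Closest to Smox, whose own root mean square was 1.0, was Casq1, the calcium-binding protein of the fast-fibre sarcoplasmic reticulum, at 0.24. Next came Pdzd7 at 0.30, Prkag3, a muscle subunit of the energy-sensing kinase AMPK, at 0.30, Mafa, a transcription factor best known from pancreatic beta cells, at 0.31, and Mpp3, a membrane-associated guanylate kinase family member, at 0.31. Amd1 ranked 9 of 10038 for Smox, at a difference of 0.33. Closest to Amd1 were its copy Amd2 at 0.16, Casq1 at 0.24, Prkag3 at 0.24, Zfp503 at 0.25 and Sypl2, a membrane protein of the muscle triad, at 0.26, and Smox ranked 14. Casq1 and Prkag3 were thus among the 5 closest to both Smox and Amd1. The likeness of Amd2 to Amd1 is uncertain, because the counting could split reads between them. The libraries share the differences described for KPC replicates 1 and 4, and these 2 libraries were the lowest for Smox and for each of its 5 closest genes.

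**Figure D5:**
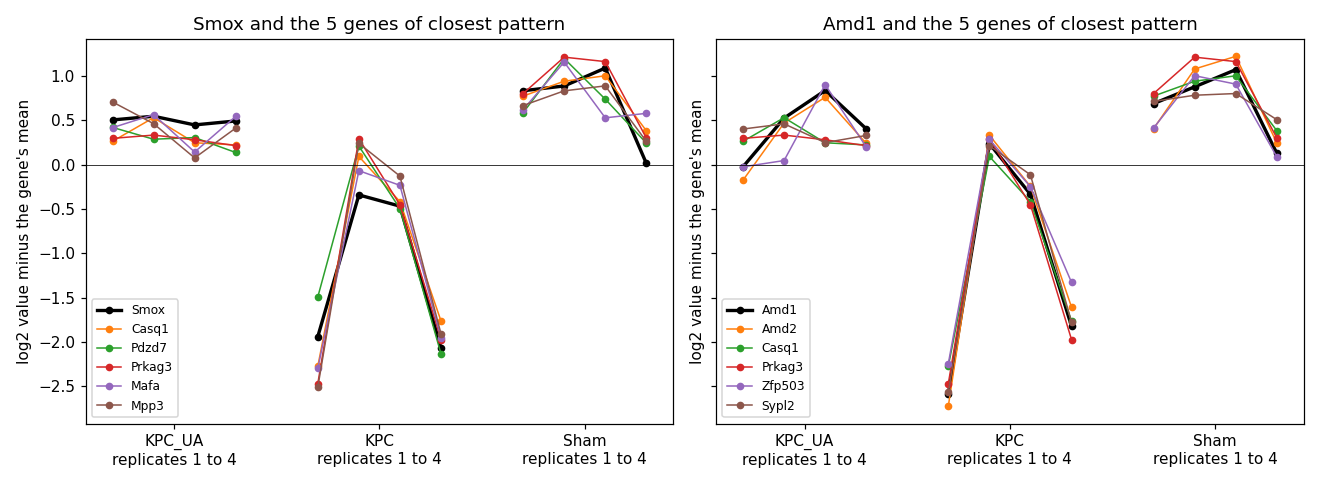
Log2 values minus each gene's mean over 12 libraries (vertical axes), by library in KPC_UA, KPC and Sham, for Smox (left) and Amd1 (right) in black and the 5 genes of closest pattern in colour. Lines only join the libraries of a group, whose order has no meaning, and in KPC replicate 1 Smox is at -1.94 and Casq1 at -2.27.

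A wider list of 37 genes around the pathway had 26 members in the tables, all of them tested. In KPC against Sham limma called 1 of 26 (1.18% of all genes), 9 had an unadjusted p under 0.05 (24.5%) and 6 did not overlap (19.1%), with a median log2 fold change of 0.026. The called gene was Gadd45a, a stress-induced growth arrest gene that is raised in atrophying mouse muscle. It had 566.5, 1145, 1205 and 947 normalised read counts in KPC_UA, 4950, 1108, 1743 and 4414 in KPC, and 624, 583, 466 and 558 in Sham. All KPC libraries were above all Sham libraries, with the highest levels in KPC replicates 1 and 4. Gadd45a rose by 2.19 on the log2 scale in KPC against Sham (SE 0.43, adjusted p = 0.0454 by limma), was at -1.45 in KPC_UA against KPC (adjusted p = 0.382 by limma) and at 0.75 in KPC_UA against Sham (adjusted p = 0.348 by limma). The call of Gadd45a was lost without each of Sham replicates 1 to 4 and without KPC replicate 3 or 4, fits in which limma called 0% of all genes. DESeq2 and the authors' deposited table each called 4 of the 26 (11.7% of all genes), namely Gadd45a, Oat, Myc and Slc18b1.
Oat, the ornithine aminotransferase that competes with Odc1 for ornithine, had 3689 to 5576 normalised read counts in KPC_UA, 5170 to 8747 in KPC and 3945 to 4146 in Sham. All KPC libraries were above all Sham libraries. The log2 fold change of Oat was 0.69 in KPC against Sham (interval 0.28 to 1.09, adjusted p = 0.0901 by limma), and the authors' deposited table gives 0.71 with an adjusted p of 0.00866. Myc, a transcription factor that activates Odc1, had 30.8 to 94.7 in KPC_UA, 99.9 to 215 in KPC and 36.2 to 88.8 in Sham, with KPC above both other groups in every library. For Myc the log2 fold changes were 1.19 in KPC against Sham (adjusted p = 0.0999 by limma, and 0.0140 in the authors' deposited table) and -1.31 in KPC_UA against KPC (adjusted p = 0.382 by limma).
In KPC_UA against KPC limma called 0 of 26 (0%) and edgeR 0 (0%), with 6 under an unadjusted p of 0.05 (12.7%), and DESeq2 called Gadd45a lower (0.738%). Cdkn1a, the cell cycle inhibitor p21, was at 290 to 412 in KPC_UA, 478 to 10459 in KPC and 122 to 259 in Sham, with KPC replicate 1 far above the rest. DESeq2 gave it no adjusted p in comparisons with KPC. The log2 fold change of Cdkn1a was 2.70 in KPC against Sham (adjusted p = 0.113 by limma), where limma over 12 libraries called it (adjusted p = 0.0408, 7.89% of all genes), as did edgeR over 12 libraries (adjusted p = 0.0224, 10.9%). It was -1.94 in KPC_UA against KPC (adjusted p = 0.382 by limma) and 0.77 in KPC_UA against Sham (adjusted p = 0.366 by limma). In KPC_UA against Sham limma and edgeR each called 0 of 26 (0%), with 4 under an unadjusted p of 0.05 (7.94%), and DESeq2 called Gadd45a higher (0.692%). Sat2, a relative of Sat1, was at 56.0 to 74.9 in KPC_UA and 77.3 to 100.4 in Sham, which do not overlap, at -0.39 on the log2 scale (limma adjusted p = 0.575). Over all genes limma called 1.18% in KPC against Sham and 0% in both comparisons of KPC_UA, where no gene of any role could thus be called. By role, limma called 0 of 4 genes of arginine and ornithine supply, 0 of 2 further acetyltransferase and decarboxylase copies, 0 of 8 of S-adenosylmethionine supply and salvage, 0 of 4 transporters and 0 of 4 genes of eIF5A hypusination in each of the 3 comparisons. At an unadjusted p under 0.05 in KPC against Sham these groups held 1, 1, 1, 3 and 0 genes in the same order, where 24.5% of all genes were under it. The gene in the second group was Amd2, whose values are uncertain where the counting could split reads with Amd1. Amd2 may thus not count separately from Amd1, here or in the wider list. The transporters under this p included Slc18b1, a vesicular polyamine transporter, at a log2 fold change of -1.59, and Atp13a2, a lysosomal polyamine exporter, at -0.62. Slc3a2, an amino acid transporter subunit, was the other, at 0.69. The limma adjusted p of Slc18b1 was 0.114, and the authors' deposited table gives 0.0252. Slc18b1 rests on few reads, with 6, 45, 31 and 31 in KPC replicates 1 to 4 and 66 to 86 in Sham.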

How the data were processed

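Total RNA of 12 tibialis anterior samples (3 groups of 4) was sequenced. Per the submitters' processing notes, the tools were bcl2fastq 2.17, Subread 1.5.2 and featureCounts, and the genome build GRCm38. Aligner, annotation and strand setting were not given in the sources used here. Per the file headers, each of 3 tables that the authors deposited compares 2 groups and holds normalised signal values by library, p-values (raw and adjusted) and log2 fold changes. They list 13578 (KPC against Sham), 13557 (KPC_UA against KPC) and 13583 (KPC_UA against Sham) genes, and a listed gene had at least 81 reads in all. The deposited signal values were whole multiples of 1 step per column, so that 100% of values came out as whole reads (within 0.01), the same in both tables of a library. They are thus reads over a size factor set for each library and table.

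Each comparison was tested within its table by the two-sided test of limma 3.58.1 (R 4.3.3, variance trend, robust) on log2(value + 1), for genes whose mean was at least 10. Benjamini-Hochberg adjusted p under 0.05 was called. EdgeR 4.0.16, DESeq2 1.42.0 and the authors' p-values were alternatives. Fits were also run on simulated data that had the same spread setting in every gene and group. Such data lack the wider spread of the KPC libraries, so they do not show how the fits behave with it. DESeq2 and the authors' p-values were nearly the same, so they are not separate analyses. Levels shown across 3 groups were scaled over 12 libraries on 13244 shared genes, and likeness used genes with a mean of at least 50. Coordinates (counted from 1) and exon lengths are from GENCODE M21, and promoters from RefSeq. Copies were transcripts with at least 90% identity over 200 aligned bases. Named genes were the 10 members, the wider-list genes with the 3 smallest p in a comparison or called, the 5 closest in pattern, and, chosen after their values were seen, Amd2, Atp13a2, Slc3a2 and Slc18b1. No sample was left out of the main fits. Members and lists were chosen with earlier results of these data known. No protein sequences were used here.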

Additional observations from a re-analysis of the deposited data

Results flagged for a closer look

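Within 30 groups of 4 libraries (10 genes, 3 groups), 5 had a library whose gap to its nearest neighbour exceeded Dixon's critical share of the group's range at 95% confidence, which chance alone exceeds in about 1 of 20 groups. Azin1 had 3 of them, replicate 1 of KPC_UA at 1078.2 normalised read counts, replicate 1 of KPC at 1310.6 and replicate 4 of Sham at 779.4. Sham replicate 4 also stood apart as the highest Sham library for Sat1, at 409.79, and as the lowest for Oaz1, at 6092.6. Smox and Amd1 had no such library, although Sham replicate 4 was the lowest Sham library for both, at 7149 and 12063.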

How the results depend on the processing

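Of 660 values of the 10 genes under alternatives, 622 kept their direction and side of the threshold, 16 became called and 22 changed sign. None of the 10 genes was called as reported, so no call could be lost. Many alternative fits, among them most of those with KPC_UA, called 0% of all genes, so no member could become called there. The number of kept values is therefore no measure of how firm the results are. DESeq2 and the authors' deposited values, which are nearly the same, both enter these numbers. In KPC against Sham the count of called members was 0 as reported, 2 by DESeq2, by the authors' p-values (each with 11.7% of all genes called) and by limma over 12 libraries (7.89%), Smox and Amd1 each time, 2 by edgeR over 12 libraries (Smox and Sat1, 10.9%), 2 without KPC replicates 1 and 4 together (Smox and Azin1, 4.51%), and 0 to 2 when 1 library was left out. Of all genes, limma called 10% without KPC replicate 2, 2.93% without KPC replicate 1 and 0% without any 1 of the other 6 libraries. KPC replicate 2 was the highest KPC library for Smox and Amd1, and KPC replicate 1 for Azin1. Calls of these genes without that library are therefore tied to the values tested. The wider list's count was 1 as reported, 4 by DESeq2, the authors' p-values, limma over 12 libraries and edgeR over 12 libraries, 0 with a mean of at least 50 (0.826% of all genes), 0 without trend and robust estimation (1.11%), 2 without KPC replicates 1 and 4 together (4.51%), 0 without Sham replicate 1 and KPC replicate 4 together (0%), and 0 to 6 when 1 library was left out, with 6 only without KPC replicate 2 (10%). In KPC_UA against KPC DESeq2 and the authors' p-values each called 1 member and 1 of the wider list (0.738% and 0.73% of all genes), against 0 as reported. In KPC_UA against Sham both called 1 of the wider list (0.692% of all genes), against 0, and no alternative called a member. Over all alternatives in KPC against Sham the adjusted p of Smox ranged from 0.00181 to 0.325 and that of Amd1 from 0.0241 to 0.369, both ranges with negative fold changes throughout. For Smox in KPC_UA against KPC it ranged from 0.0301 to 0.611.

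Signs turned as follows. Without KPC replicates 1 and 4 the log2 fold change against Sham was -0.16 for Odc1 and 0.016 for Oaz2, and in KPC_UA against KPC it was 0.31 for Odc1, 0.028 for Sat1 and -0.046 for Oaz2. Azin1 in KPC_UA against KPC was -0.0014 by edgeR, -0.024 by DESeq2 and by the authors' table and -0.0062 by edgeR over 12 libraries, and with 1 library left out Azin1 ranged from -0.17 to 0.37 and Odc1 from -0.55 to 0.039. In KPC_UA against Sham Sms was -0.015 after quantile normalisation, -0.0019 by limma over 12 libraries and -0.0041 by edgeR over 12 libraries. With 1 library left out Sms ranged from -0.084 to 0.074, Paox from -0.082 to 0.21, Odc1 from -0.035 to 0.33, Oaz1 from -0.17 to 0.015 and Oaz2 from -0.090 to 0.038. The cause was not tested, beyond the smaller number of libraries where some were left out.

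The labels do not say whether equal replicate numbers mark paired samples. Deviations of same-numbered libraries from their group means correlated at -0.28 to 0.14. This cannot decide whether samples were paired, because deviations from a mean of 4 libraries are not independent of each other. With the replicate number as a block, 1 member was called in KPC against Sham (Smox, adjusted p = 0.0406 by limma), where 0.487% of all genes were called, and 0 in the other comparisons (0% of all genes in each). Precision is limited by 4 libraries a group, and Paox and Srm rest on the fewest reads of the 10 genes.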
